A study of Mus musculus with 24 samples.

Results

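The subject is 6 mouse genes that encode plasma membrane carriers of amino acids, Slc3a2, Slc7a5, Slc7a7, Slc7a3, Slc6a9 and Slc38a4, in fibroblasts under endoplasmic reticulum (ER) stress. They were picked by gene name, with earlier results of these data known. Every probe set that the array's gene table gives them was taken. Each gene had 1 probe set, so there were 6 among the 12422 that are not array controls. RNA came from primary mouse embryonic fibroblasts, which are cells grown directly from embryos rather than an established line. The groups were CHOP-/- cells left untreated, in tunicamycin for 4 h and in tunicamycin for 8 h, and wild type cells under the same 3 conditions. CHOP is a transcription factor encoded by Ddit3. Tunicamycin, given at 2 µg/ml, blocks N-linked glycosylation and so makes misfolded proteins gather in the ER. Each of the 6 groups held 4 arrays lettered A to D, 24 in all. The labels name untreated cells rather than a vehicle, give passage 3 on 3 arrays, and state neither the deleted allele nor the strain nor the age of the embryos. No label says whether the 4 arrays stand for separate cultures or animals. Each p-value therefore speaks only of the scatter of arrays within groups, pooled over all 24, which may be technical.

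When misfolded proteins gather in the ER, the kinase PERK slows protein synthesis in general and lets the transcription factor ATF4 be made. ATF4 is known to switch on genes of amino acid uptake and synthesis as well as Ddit3, and CHOP can bind DNA together with ATF4. Slc3a2 encodes the heavy chain that carries several light chains to the cell surface. Its partners include Slc7a5, which exchanges large neutral amino acids such as leucine, and Slc7a7, which exchanges cationic for neutral amino acids. Slc7a3 takes up cationic amino acids such as arginine without a heavy chain. Slc6a9 takes up glycine with sodium, and Slc38a4 carries neutral amino acids with sodium.

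Values are the deposited probe set signals on a linear scale, which have no absolute unit and are not set against each other between genes. Changes are differences of log2(signal + 5.7) after quantile normalization, from a limma model of the 6 group means. A probe set was called when its p, adjusted over all 7453 tested probe sets of a comparison by the Benjamini-Hochberg method, was under 0.05. All 6 transporter probe sets passed the filter on low signals. Errors of mean signals are SD over 4 arrays, and errors of log2 changes are standard errors (SE). The Ddit3 signal lay between 6.9 and 40.4 on the 12 CHOP-/- arrays and between 215.5 and 4883 on the 12 wild type arrays, as the labels state. Of 17 fibroblast markers 16 were on the array, and their summed signal was 32240 to 47880 on CHOP-/- arrays and 28790 to 45390 on wild type arrays. The probe set of Vim, one of them, read only 8.4 to 41.1. The summed signal of 13 macrophage and leukocyte markers was 550.9 to 1928 on CHOP-/- arrays and 643 to 5439 on wild type arrays. The high values were those of wild type arrays A and B at all 3 times, from 2813 upwards, while wild type C and D stayed at or under 1100. In bulk RNA fewer cells of a type and less RNA per cell cannot be told apart. Calls that are lost without wild type arrays A and B are given both ways. Statements on which arrays overlap rest on deposited signals, and cases that differ after normalization are named.

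To show the sequence upstream of a carrier that rose in both genotypes and of the light chain that differed between genotypes, the RefSeq promoter windows (build GRCm38.p6) of Slc3a2 and of the most upstream start of Slc7a7 follow. Each runs 5′ to 3′ on the gene's own strand, from 250 bases before the transcription start to 50 after it. Capitals mark matches to TGATGNAA, the core of the C/EBP-ATF response element that ATF4 and CHOP dimers are known to bind.
Slc3a2, chr19:8713848-8714147, minus strand: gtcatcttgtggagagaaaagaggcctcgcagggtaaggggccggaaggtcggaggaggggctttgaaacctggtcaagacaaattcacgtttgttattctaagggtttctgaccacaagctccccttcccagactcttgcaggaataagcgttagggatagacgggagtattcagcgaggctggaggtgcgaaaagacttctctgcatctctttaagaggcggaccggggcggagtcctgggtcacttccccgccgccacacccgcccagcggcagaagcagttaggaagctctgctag
Slc7a7, chr14:54417895-54418194, minus strand: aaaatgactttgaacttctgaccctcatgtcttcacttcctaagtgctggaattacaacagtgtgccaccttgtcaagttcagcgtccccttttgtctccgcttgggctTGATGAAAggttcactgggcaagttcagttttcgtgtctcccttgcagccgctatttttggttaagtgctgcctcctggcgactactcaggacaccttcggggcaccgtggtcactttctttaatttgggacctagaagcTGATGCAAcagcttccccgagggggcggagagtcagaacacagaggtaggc
The table held windows for 4 of the 6 genes, 12 windows in all, for Slc3a2, Slc6a9, Slc7a7 and Slc38a4. Searched on both strands, TGATGNAA was found in 3.97% of all 32851 windows of this length and in 4.51% of 27025 genes. Among the transporters it was found only for Slc7a7. The first match, TGATGAAA at chr14:54418078-54418085, begins 141 bases before the most upstream start. The second, TGATGCAA at chr14:54417938-54417945, begins 1 base before that start and is also in the window of the next start. The unfolded protein response element core TGACGTGG (0.676% of windows) and the ER stress element (0.119% of windows) had no match in the 12 windows. A match describes letters only, and no match says only that these letters are absent from these windows.

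Slc3a2, the heavy chain, rose in tunicamycin in both genotypes, with no called difference between them. Its signals in CHOP-/- cells were 2051.4, 2124.4, 1798.6 and 2513.7 untreated, 3602.4, 3260.8, 2522.4 and 3011.4 at 4 h, and 4415.6, 5009.7, 4196.4 and 4269 at 8 h. In wild type cells they were 2059.5, 2169.8, 2381.8 and 2385.8 untreated, 2945.5, 3531.3, 3531.6 and 4077.7 at 4 h, and 4740.4, 4037.2, 3951 and 4876.1 at 8 h. In each genotype every treated array lay above every untreated array, by a narrow margin in CHOP-/- cells at 4 h (2522.4 against 2513.7). After normalization the CHOP-/- arrays at 4 h and untreated overlapped. The wild type arrays at 8 h and 4 h overlapped in deposited signal and not after normalization. At 8 h against untreated the log2 change was 1.02 ± 0.115 in CHOP-/- cells (adjusted p = 1.46e-06) and 1.0 ± 0.115 in wild type cells (adjusted p = 1.6e-06), folds of 2.02 and 2.00. At 4 h it was 0.48 in CHOP-/- cells (adjusted p = 0.0391) and 0.69 in wild type cells (adjusted p = 0.000851). The 4 h call in CHOP-/- cells held in 10 of 21 settings and was lost without untreated array A, B or C or 4 h array A, B or D, with an adjusted p of up to 0.346 over all settings. Without wild type arrays A and B it was 0.47 and not called (adjusted p = 0.0946). The one in wild type cells was lost under median centring (adjusted p = 0.081) and without arrays A and B (0.62, adjusted p = 0.321). From 4 h to 8 h Slc3a2 rose further in CHOP-/- cells, by 0.54 (adjusted p = 0.0077), while the wild type value of 0.31 was not called (adjusted p = 0.177). Between genotypes the differences were -0.01 untreated, -0.23 at 4 h and 0.01 at 8 h, none of them called. The difference of the 8 h responses, CHOP-/- less wild type, was 0.02 with a 95% interval of -0.32 to 0.35, the narrowest of the 6 genes together with that at 4 h.

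**Figure D1:**
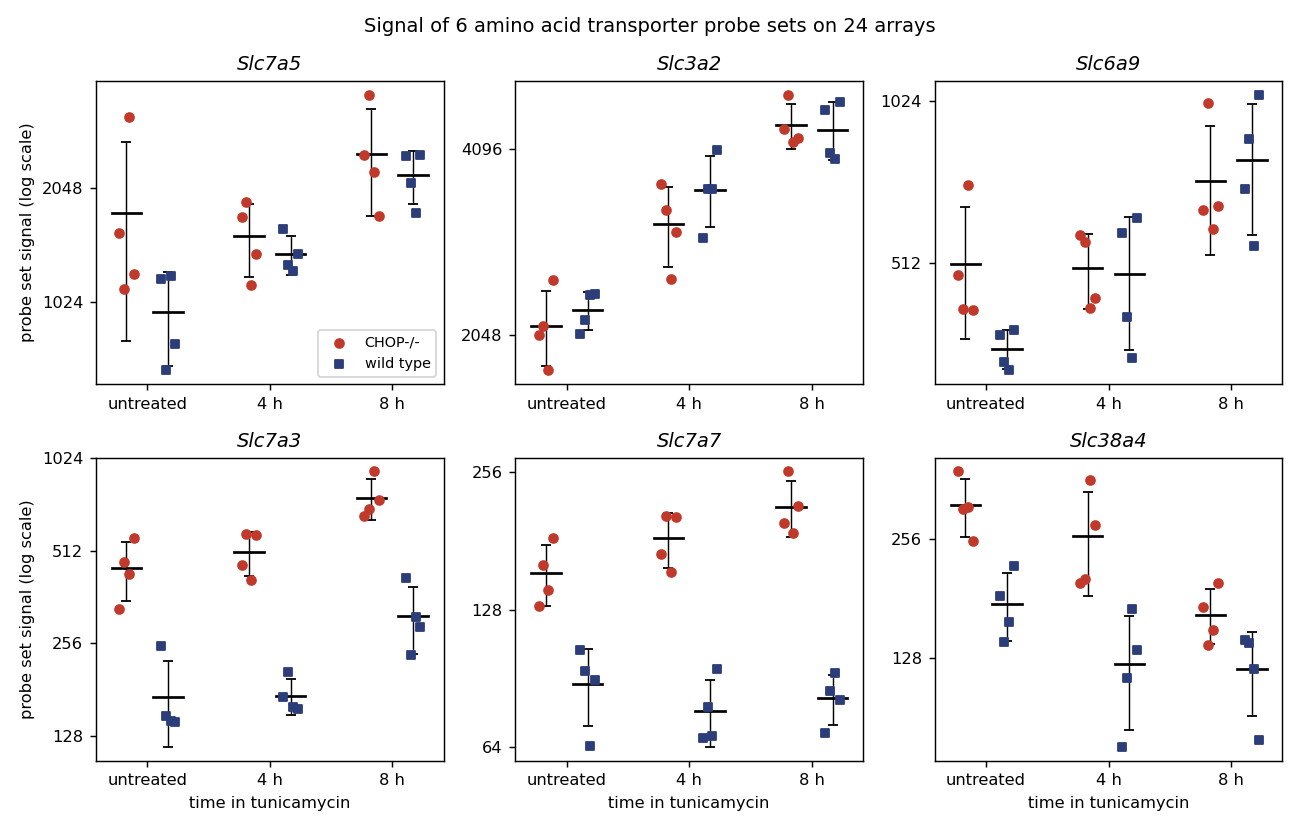
Deposited signal of the 6 transporter probe sets (log axis) on every array by time in tunicamycin, with CHOP-/- arrays as red circles and wild type arrays as blue squares; bars are the mean and SD of 4 arrays. Slc3a2 of every treated array lies above the untreated arrays of its genotype, Slc7a3 and Slc7a7 of CHOP-/- cells lie above wild type cells at every time, and 1 untreated CHOP-/- array stands high for Slc7a5 (3149.5).

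Slc7a5, the leucine-carrying light chain, rose in wild type cells at 8 h, and its 8 h change in CHOP-/- cells was called in only 2 of 21 settings. CHOP-/- signals were 1561.6, 1111.1, 3149.5 and 1215.6 untreated, 1713.6, 1880.6, 1139.9 and 1371.9 at 4 h, and 2489.9, 3590.9, 2246 and 1724.3 at 8 h. Wild type signals were 1177.7, 679.1, 1204.6 and 796.2 untreated, 1597, 1285.6, 1234.8 and 1371.3 at 4 h, and 2478.2, 2104.7, 1762 and 2500.9 at 8 h. The 12 wild type arrays fell into 3 groups by time that did not overlap, although those at 8 h and 4 h did after normalization, whereas untreated array C of CHOP-/- cells lay above 3 of the 4 arrays at 8 h. The 8 h change was 0.58 ± 0.26 in CHOP-/- cells (adjusted p = 0.16) and 1.22 ± 0.26 in wild type cells (adjusted p = 0.00198). Without CHOP-/- untreated array C the CHOP-/- change was 0.88 and was called (adjusted p = 0.0129). With array weights and all arrays kept it was also called, and over 21 settings it ranged from 0.40 to 0.88. By Dixon's test on normalized values, 0 of 36 sets of 4 arrays (1 gene in 1 group) held an outlying array. The wild type change was 1.09 and was not called without arrays A and B (adjusted p = 0.137), where 2 arrays a group were left. At 4 h the changes were -0.09 in CHOP-/- cells and 0.58 in wild type cells (adjusted p = 0.941 and 0.445), and the CHOP-/- value was 0.21 without untreated array C. The response difference at 8 h was -0.64 (95% interval -1.40 to 0.12) and was not called; it was -0.34 without that array. Untreated CHOP-/- cells averaged 1759 ± 946 and wild type cells 964.4 ± 266 (SD, n = 4 each), a log2 difference of 0.78 that was not called (adjusted p = 0.263) and was 0.47 without array C.

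Slc7a7, the other light chain, was higher in CHOP-/- cells at every time. Its CHOP-/- signals were 130.2, 160.5, 141.6 and 183.5 untreated, 169.8, 205.5, 154.9 and 204.1 at 4 h, and 198.2, 257.1, 188.6 and 215.7 at 8 h. Its wild type signals were 104.2, 94.1, 64.5 and 89.9 untreated, 66.9, 78.4, 67.8 and 94.7 at 4 h, and 68.6, 84.9, 93.2 and 81 at 8 h. The lowest of the 12 CHOP-/- arrays lay above the highest of the 12 wild type arrays. The log2 differences were 0.74 ± 0.17 untreated (adjusted p = 0.0331), 1.23 at 4 h (adjusted p = 0.00018) and 1.28 at 8 h (adjusted p = 6.76e-05), folds of 1.67, 2.35 and 2.43. The untreated call was lost in 10 of 20 settings, with an adjusted p of up to 0.24. These included leaving out CHOP-/- array B, C or D or wild type array A, C or D. The calls at 4 h and 8 h held in all 20. With the main settings tunicamycin gave no called change of Slc7a7: 0.47 at 8 h in CHOP-/- cells (adjusted p = 0.0743) and -0.07 in wild type cells (adjusted p = 0.846). In 3 of 21 settings the CHOP-/- value was called: median centring, array weights and the replicate block (lowest adjusted p = 0.0391). The CHOP-/- arrays at 8 h did not overlap the untreated ones. The response difference of 0.54 at 8 h had a 95% interval of 0.04 to 1.04, was not called after adjustment, and was 0.23 without wild type arrays A and B. Without them the wild type change at 8 h was 0.24 (adjusted p = 0.687).

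Slc7a7 is also known as a gene of macrophages, so it was read beside the macrophage and leukocyte markers. Wild type arrays A and B, where the markers summed to between 2813 and 5439, had Slc7a7 signals of 66.9 to 104.2, and wild type arrays C and D, where they summed to between 643 and 1100, had 64.5 to 94.7. On the CHOP-/- arrays, with sums of 550.9 to 1928, Slc7a7 was 130.2 to 257.1. Without wild type arrays A and B the genotype difference was 0.93 untreated (adjusted p = 0.0397), 1.04 at 4 h (adjusted p = 0.013) and 1.16 at 8 h (adjusted p = 0.00356), all still called. Lyz2, the lysozyme of macrophages, read 32.7 to 278.3 on CHOP-/- arrays and 76.7 to 1563.4 on wild type arrays, and 1 of the 13 markers stayed under 27.8 on all 24 arrays. No macrophage and leukocyte marker was called between genotypes, and the median difference of the 9 tested ones was -0.77 untreated, -0.72 at 4 h and -1.07 at 8 h.

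**Figure D2:**
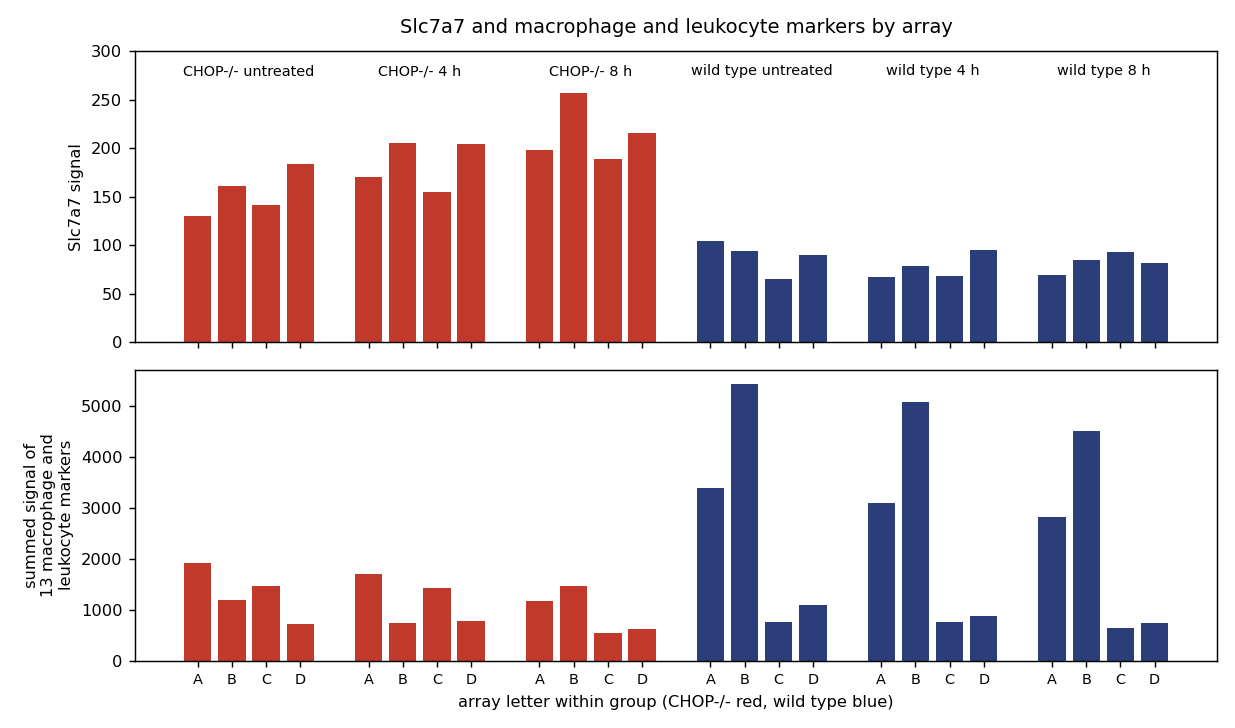
Slc7a7 signal (top) and summed signal of 13 macrophage and leukocyte markers (bottom) on each of the 24 arrays, CHOP-/- arrays left in red and wild type arrays right in blue. Slc7a7 is 130.2 or more on every CHOP-/- array and 104.2 or less on every wild type array, while the marker sum is highest on wild type arrays A and B.

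Slc7a3, the cationic amino acid carrier, was higher in CHOP-/- cells at every time and rose at 8 h in both genotypes. CHOP-/- signals were 330, 470.5, 431 and 562.2 untreated, 460.2, 577.5, 410.7 and 575.6 at 4 h, and 662.8, 696.4, 924.8 and 748.5 at 8 h. Wild type signals were 250.9, 149, 143 and 142.2 untreated, 171.5, 206.6, 159 and 156.4 at 4 h, and 416.7, 235.3, 311.3 and 289.2 at 8 h. At each time all 4 CHOP-/- arrays lay above all 4 wild type arrays, and 1 wild type array at 8 h (416.7) reached the range of untreated CHOP-/- cells. The differences of 1.33 ± 0.197 untreated (adjusted p = 0.000589), 1.55 at 4 h (adjusted p = 7.16e-05) and 1.27 at 8 h (adjusted p = 0.000315) were folds of 2.51, 2.92 and 2.42, called in all 20 settings. By p, Slc7a3 ranked 9th of 7453 probe sets untreated, 6th at 4 h and 32nd at 8 h. At 8 h against untreated Slc7a3 rose by 0.77 in CHOP-/- cells (adjusted p = 0.0102) and by 0.83 in wild type cells (adjusted p = 0.00537). The CHOP-/- call was lost without untreated array A (adjusted p = 0.0526). At 4 h the changes were 0.22 in CHOP-/- cells and 0.00 in wild type cells, neither called. From 4 h to 8 h the change was 0.55 in CHOP-/- cells (adjusted p = 0.11) and 0.83 in wild type cells (adjusted p = 0.0204), and the wild type call was lost in 5 of 21 settings, among them without array A or D at 4 h or array A at 8 h, and without wild type arrays A and B at all times (0.86, adjusted p = 0.173). The response differences were 0.22 at 4 h (95% interval -0.36 to 0.80) and -0.05 at 8 h (95% interval -0.63 to 0.52).

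Slc6a9, the glycine carrier, rose in wild type cells at 8 h. Its CHOP-/- signals were 486.4, 420.5, 713.7 and 419.1 untreated, 577.4, 561.1, 423.7 and 441 at 4 h, and 643, 1014.8, 591.6 and 653.1 at 8 h. Its wild type signals were 377.9, 336.8, 324.4 and 385.2 untreated, 582.9, 407.1, 341.5 and 620.7 at 4 h, and 702.5, 869.8, 551.4 and 1049.2 at 8 h. Untreated array C of CHOP-/- cells was again the highest of its group, and the untreated arrays of the genotypes did not overlap. The 8 h change was 0.50 ± 0.217 in CHOP-/- cells (adjusted p = 0.142) and 1.08 ± 0.217 in wild type cells (adjusted p = 0.00124). Without untreated array C the CHOP-/- change was 0.68 and was called (adjusted p = 0.0451), and without arrays A and B the wild type change was 1.06 and was not (adjusted p = 0.0984). The wild type change of 0.68 from 4 h to 8 h was not called (adjusted p = 0.0919), nor with the letter as a replicate block over all 24 arrays (adjusted p = 0.0832). It was called in 3 of 21 settings, with a lowest adjusted p of 0.0374. These were median centring, leaving out wild type array C at 8 h, and a letter block within each genotype (adjusted p = 0.0441). The letter block within genotype was chosen after seeing the data. CHOP-/- array C untreated was the highest of its 4 arrays in 30.8% of all tested probe sets and in 9 of the 22 tested ATF4 genes listed further on, and array D in 31.3% and in 8 of the 22. The part of array C in these results beyond leaving it out was not tested. The genotype difference was 0.46 untreated (adjusted p = 0.571), 0.06 at 4 h and -0.12 at 8 h, none called. The 8 h response difference was -0.58 (95% interval -1.21 to 0.06) and was not called.

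**Figure D3:**
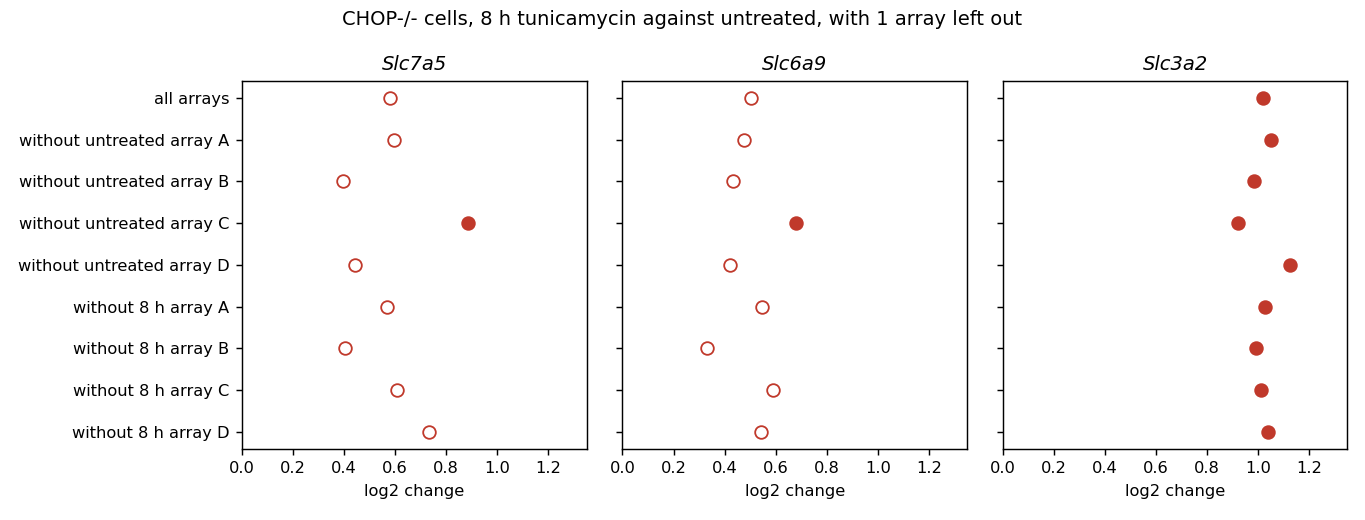
Log2 change at 8 h of tunicamycin in CHOP-/- cells for Slc7a5, Slc6a9 and Slc3a2, with all arrays and with each untreated or 8 h CHOP-/- array left out; filled points are called. Leaving out untreated array C moves Slc7a5 to 0.88 and Slc6a9 to 0.68, both called, while Slc3a2 stays called throughout.

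Slc38a4, the sodium-coupled neutral carrier, was the only one of the 6 called lower in tunicamycin. CHOP-/- signals were 380.8, 305, 309.7 and 253.8 untreated, 198, 203.2, 361.7 and 278.7 at 4 h, and 172.9, 137.9, 151 and 198.3 at 8 h. Wild type signals were 184.2, 140.7, 158.3 and 219.6 untreated, 76.1, 113.9, 170.7 and 134 at 4 h, and 141.9, 139.8, 120.4 and 79.5 at 8 h. All 8 h arrays of CHOP-/- cells lay below all untreated ones. They overlapped those at 4 h in deposited signal and not after normalization. The wild type arrays at 8 h overlapped the untreated ones only by 141.9 against 140.7, and not after normalization, where all 4 were lower. The 8 h change was -0.88 ± 0.25 in CHOP-/- cells (adjusted p = 0.0206), a fold of 0.543, and -0.56 in wild type cells (adjusted p = 0.148). Without wild type arrays A and B the wild type change was -0.88, not called (adjusted p = 0.123), and the 8 h response difference was -0.003, against -0.32 with all arrays. The CHOP-/- call was lost without untreated array A, 8 h array B or 8 h array C, with an adjusted p of up to 0.0657. CHOP-/- cells were higher than wild type cells at 4 h by 1.12 ± 0.25 (adjusted p = 0.0154), and no array overlapped. That call was lost without wild type array A, CHOP-/- array C or CHOP-/- array D at 4 h, and without wild type arrays A and B at all times (0.69, adjusted p = 0.305). It was also lost when only the groups compared were fitted, and held in 15 of 20 settings. Untreated arrays did not overlap between genotypes either, at a difference of 0.76 that was not called (adjusted p = 0.244). Of 20 settings only array weights called the untreated difference (adjusted p = 0.0439). At 8 h the difference was 0.44 (adjusted p = 0.423).

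Counted together, tunicamycin for 4 h called 1 of the 6 transporters in CHOP-/- cells and 1 in wild type cells, both Slc3a2, where 1.36% and 1.95% of all tested probe sets were called. Arrays at 4 h and untreated did not overlap for 1 of the 6 in CHOP-/- cells (5.45% of all) and for 2 in wild type cells (5.72% of all), Slc7a5 and Slc3a2. At 8 h it called 3 of 6 in CHOP-/- cells, 2 higher and 1 lower, against 12.5% of all probe sets, 6.6% higher and 5.93% lower. In wild type cells it called 4 of 6, all higher, against 15.1% of all, 8.79% being higher. The 6 were chosen with earlier results of these data known, so these shares do not test them as a set. The median 8 h change of the 6 was 0.54 in CHOP-/- cells and 0.91 in wild type cells, where that of all probe sets was -0.003 and -0.014. From 4 h to 8 h 1 of 6 was called in CHOP-/- cells (5.03% of all), Slc3a2, and 1 in wild type cells (3.61% of all), Slc7a3. Arrays at 8 h and 4 h did not overlap for 3 of the 6 in CHOP-/- cells (11.1% of all) and for 2 in wild type cells (7.98% of all). On deposited signals the arrays at 8 h and untreated did not overlap for 4 of 6 in CHOP-/- cells (16.4% of all) and for 3 of 6 in wild type cells (19.2% of all).

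**Figure D4:**
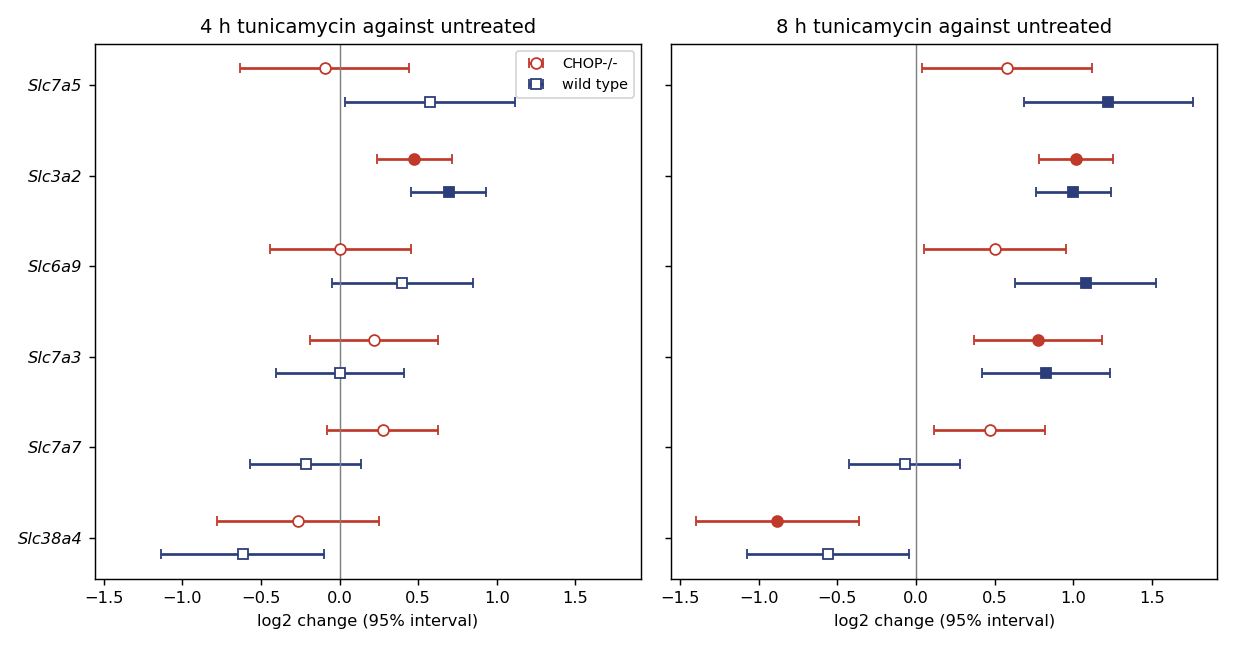
Log2 change of each transporter at 4 h (left) and 8 h (right) of tunicamycin against untreated cells, with CHOP-/- cells in red above wild type cells in blue; bars are 95% intervals and filled points are called. At 8 h Slc3a2 sits at 1.02 and 1.0 with the narrowest bars, and Slc38a4 of CHOP-/- cells is the filled point below 0.

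Between genotypes CHOP-/- cells were higher for 2 of the 6 untreated (0.845% of all probe sets called, 0.496% higher), 3 at 4 h (1.93% called, 0.818% higher) and 2 at 8 h (3.8% called, 1.96% higher). These were Slc7a3 and Slc7a7 at every time and Slc38a4 at 4 h, and none was lower. Arrays did not overlap for 4 of 6 untreated (4.76% of all), 3 at 4 h (6.28% of all) and 2 at 8 h (10.6% of all). No response difference was called for any of the 6 at 4 h (0% of all probe sets) or at 8 h (0.0134% of all, which is Ddit3 itself) by limma, the tool used throughout. Before adjustment 291 of all probe sets and none of the 6 passed the same threshold of the limma fit at 4 h. At 8 h 328 of all did, Slc7a7 among them. Both counts are smaller shares of the 7453 tested probe sets than the 0.05 expected by chance alone. Calls in one genotype and not in the other, as for Slc7a5, Slc6a9 and Slc38a4, therefore do not show that the genotypes responded differently.

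**Figure D5:**
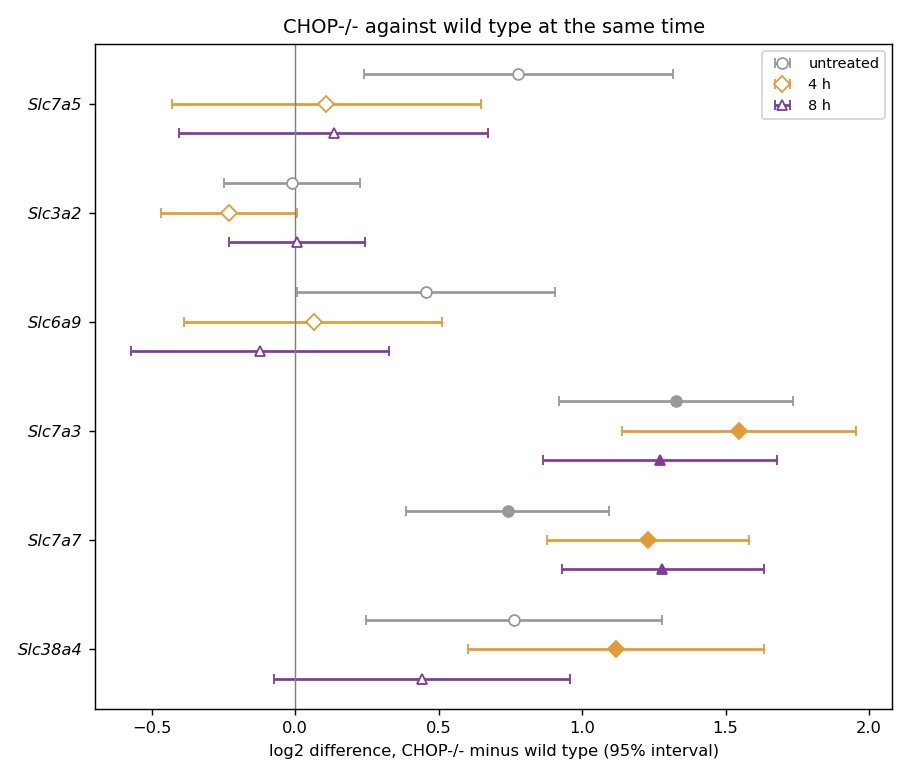
Log2 difference, CHOP-/- minus wild type, of each transporter in untreated cells and at 4 h and 8 h of tunicamycin, with 95% intervals; filled symbols are called. Slc7a3 and Slc7a7 are filled at all 3 times, at 0.74 or more, while every symbol of Slc3a2, Slc7a5 and Slc6a9 is open.

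The wider setting was read from lists of related genes, also chosen with earlier results of these data known. Of 33 other amino acid transporter genes 17 were on the array and 9 passed the filter. Of these 9 only Slc1a4, a carrier of alanine, serine and cysteine, was called in any comparison, at 8 h in wild type cells (0.86 ± 0.232, adjusted p = 0.0129). In that comparison 15.1% of all tested probe sets were called, 8.79% being higher. Slc1a4 averaged 1417 ± 193 at 8 h and 917.2 ± 172 untreated in CHOP-/- cells (SD, n = 4 each), a change of 0.66 that was not called (adjusted p = 0.0658). The wild type means were 1095 ± 259 at 8 h and 592.3 ± 147 untreated. The glutamine carrier Slc38a2 had 8 h changes of 0.20 in CHOP-/- cells and 0.08 in wild type cells, neither called. The median 8 h change of the 9 was 0.13 in CHOP-/- cells and 0.08 in wild type cells. Slc7a11, the cystine carrier, had a mean under the filter and was not tested. Its signals were 17.3 to 36.1 at 8 h and 11.4 to 26.1 untreated in CHOP-/- cells, which overlapped. In wild type cells they were 17.4 to 24 at 8 h and 4.9 to 12.2 untreated, which did not. Slc7a1, also under the filter, read 12.6 to 22 at 8 h and 5.2 to 28.1 untreated in CHOP-/- cells, which overlapped. Its wild type signals were 13.7 to 26.8 at 8 h and 4.9 to 7.3 untreated, which did not. Of all tested probe sets 16.4% in CHOP-/- cells and 19.2% in wild type cells did not overlap at 8 h against untreated.

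Of 31 genes of the ATF4 pathway and amino acid synthesis 22 were tested. In CHOP-/- cells 6 rose at 4 h and 12 at 8 h, and in wild type cells 10 rose at 4 h and 16 at 8 h, with none lower. The wild type counts include Ddit3, which CHOP-/- cells lack. Over all probe sets 1.36% and 12.5% were called in CHOP-/- cells and 1.95% and 15.1% in wild type cells. Atf4 rose by 1.05 in CHOP-/- cells (adjusted p = 8.31e-08) and by 0.88 in wild type cells (adjusted p = 7.02e-07) at 8 h. Wars1, the tryptophanyl-tRNA synthetase, rose by 1.08 (adjusted p = 3.45e-06) in CHOP-/- cells and by 1.47 (adjusted p = 2.49e-08) in wild type cells. The median 8 h change of the 22 genes was 0.49 in CHOP-/- cells and 0.73 in wild type cells. Between genotypes only Asns, asparagine synthetase, was called higher, in untreated CHOP-/- cells (0.50 ± 0.092, adjusted p = 0.00537). With Ddit3 itself counted, 1 gene was lower untreated, 4 at 4 h and 5 at 8 h. Of all probe sets 0.845%, 1.93% and 3.8% were called in either direction. The median genotype difference of the 22 genes was 0.011 untreated, -0.008 at 4 h and 0.079 at 8 h. The genes lower at 4 h and 8 h included Atf5, lower by 1.04 at 4 h and 1.14 at 8 h, and Ppp1r15a, which directs dephosphorylation of eIF2α, at -1.04 and -0.96. Of 11 tested genes of amino acid sensing by the kinase complex mTORC1, its subunit gene Mlst8 rose at 8 h by 0.65 in CHOP-/- cells (adjusted p = 0.017) and by 0.69 in wild type cells (adjusted p = 0.00992). Eif4ebp2, a repressor of translation, fell by 0.65 in CHOP-/- cells (adjusted p = 0.0244) and was not called in wild type cells. At 8 h this list of 11 had 1 gene higher and 1 lower in CHOP-/- cells (12.5% of all probe sets called). In wild type cells it had 1 higher (15.1% of all called). No response difference of the list was called.

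The patterns most like each transporter were sought among 6769 tested probe sets with 1 gene, by Pearson's r of log2 values over the 24 arrays. These values describe arrays that share genotype and time, so they carry no test. For Slc3a2 they were Rabepk, Creld2 and Dnajc3, each at 0.95. For Slc7a5 they were Tnpo2 (0.88), Ptpn21 (0.86) and Iars (0.85), and for Slc6a9 Slc35b1 (0.89), Iars (0.88) and Srpr (0.87). For Slc7a3 they were Gmppb and Zdhhc16 at 0.85 and Pde4dip at 0.82, and for Slc7a7 Ctsc (0.89), Pde4dip (0.88) and Gpr137b (0.87). For Slc38a4 they were Rcan3 (0.86), Tspan6 (0.83) and Igf1 (0.82). Over the 6 group means the same pairs had an r of 0.91 to 0.99. Over the 24 arrays Slc7a5 and Slc6a9 were at 0.86 with each other and Slc7a3 and Slc7a7 at 0.87. The heavy chain Slc3a2 was at 0.59 with Slc7a5 and at 0.05 with Slc7a7.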

How the data were processed

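The authors' deposited series table held probe set signals (unit: intensity, on a linear scale to 1 decimal) for 12488 probe sets on 24 oligonucleotide arrays. From the values, the mean of each array after trimming 2% at each end lay between 250.1 and 250.2. Software, scaling and background correction: not given in the sources used here. No scanner files were used. Precision is limited by the 4 arrays in each group.

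The 66 control probe sets were removed. A pseudocount of 5.7 (20th percentile of all signals) was added, log2 was taken and arrays were quantile normalized, so changes of low signals are understated. Probe sets with a mean log2 above the 40th percentile (5.068, a signal of 27.8) were tested, 7453 in all. The 24 arrays entered 1 linear model of 6 group means (limma 3.58.1, R 4.3.3; moderated with an intensity trend, 18 residual and 5.1 prior degrees of freedom), read in 11 contrasts. Tests were two-sided, and p was adjusted by the Benjamini-Hochberg method within each contrast. Since all 6 transporters passed the filter, the exact test planned for those below it was not needed. Arrays were called non-overlapping on deposited signals. Tested on simulated data for 8 h against untreated in wild type cells (7453 probe sets), the procedure recovered 18% of changes of 0.5 log2 and 76% of changes of 1 log2, with 4 false among 98 calls. Simulated arrays varied independently, whereas wild type arrays of the same letter deviated together. The real comparison had 1122 calls, so these rates need not hold for it.

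Genes came from the array's gene table (10855 probe sets with 1 gene, 396 with several, 1237 with none). Promoter windows came from RefSeq GRCm38.p6, and chromosomes in that build are 19 for Slc3a2, 8 for Slc7a5, 14 for Slc7a7, X for Slc7a3, 4 for Slc6a9 and 15 for Slc38a4. The sources used here do not give which part of each transcript the probes read. The transporters and all lists were chosen with earlier results of these data known. From the lists of other transporters, ATF4 genes and mTORC1 genes, up to 4 called genes per contrast with the smallest adjusted p could be named, and any called against the list's main direction. Slc38a2, Slc7a11 and Slc7a1 were named outside this rule, after their values were seen. The lists of epithelial, endothelial, muscle, neural and hepatocyte markers held 2, 1, 8, 4 and 0 tested genes. Of these, at 8 h against untreated none was called in CHOP-/- cells, and in wild type cells 1 endothelial and 2 neural markers were lower. Between genotypes at 8 h, 1 endothelial and 2 neural markers were higher in CHOP-/- cells (3.8% of all probe sets called). Of 15 tested fibroblast markers 4 were lower at 8 h in CHOP-/- cells and 3 in wild type cells. At 8 h against untreated 12.5% of all probe sets were called in CHOP-/- cells and 15.1% in wild type cells. Muscle markers summed to 1997 to 5886 on CHOP-/- arrays and 2520 to 5589 on wild type arrays. Neural markers summed to 3659 to 4823 and 2438 to 4613. The epithelial, endothelial and hepatocyte lists each summed to 420.3 or less on every array.

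Arrays with the same letter deviated together (r of deviations from group means) in wild type cells between times (0.23 to 0.62) and between genotypes at 8 h (0.27 to 0.54). In CHOP-/- cells between times r was -0.33 to 0.43, so not all letters paired there. At 4 h against untreated it was 0.43 for A and 0.37 for D, but -0.33 for B and -0.23 for C. The labels do not say what a letter marks. The alternatives were other scalings, pseudocounts, filters and models, a replicate block, each array left out, and, chosen after seeing the data, a letter block within genotype and leaving out wild type arrays A and B. Figures were drawn with Python 3.11.15 and matplotlib 3.10.9.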

Additional observations from a re-analysis of the deposited data

How the results depend on the processing

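Of 18 called results for single transporters 9 stayed called in every setting, namely Slc7a3 against wild type at all 3 times and at 8 h in wild type cells, Slc7a7 against wild type at 4 h and 8 h, and Slc3a2 at 8 h in both genotypes and from 4 h to 8 h in CHOP-/- cells. No called direction reversed. Of 48 uncalled results 42 were never called. The cause of a lost call was not tested. With wild type arrays A and B left out, fewer arrays were fitted and the transporters called fell to 0 of 1 at 4 h, 2 of 4 at 8 h and 0 of 1 from 4 h to 8 h in wild type cells, and to 0 of 1 at 4 h in CHOP-/- cells. Under median centring the counts were 0 at 4 h in each genotype, 2 from 4 h to 8 h in wild type cells and 1 of 2 between untreated genotypes. Median centring also called Slc7a7 at 8 h in CHOP-/- cells. Without the filter, or fitting only the groups compared, the untreated genotype count was 1, and the CHOP-/- count at 4 h was 0, as it was without the intensity trend. Fitting only the groups compared gave 0 from 4 h to 8 h in wild type cells, where array weights and the replicate block within genotype each gave 2. Array weights gave 5 of 6 at 8 h in CHOP-/- cells. Leaving out 1 array gave 0 to 2 from 4 h to 8 h in wild type cells, 0 to 1 at 4 h and 1 to 5 at 8 h in CHOP-/- cells, and 1 to 2 between untreated genotypes. With the letter as a replicate block over all 24 arrays the only changed call was Slc7a7 at 8 h in CHOP-/- cells (0.47, adjusted p = 0.0456). There same-letter arrays had an r of -0.09 to 0.26. The block within genotype changed only the call of Slc6a9 from 4 h to 8 h in wild type cells.

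Counts over all probe sets moved more. Fitting only the groups compared gave 28 against 101 at 4 h and 189 against 375 from 4 h to 8 h in CHOP-/- cells, 84 against 145 and 125 against 269 in wild type cells, and 24 against 63 untreated and 61 against 144 at 4 h between genotypes. Without wild type arrays A and B there were 61 at 4 h in CHOP-/- cells, 24 at 4 h, 337 against 1122 at 8 h and 22 from 4 h to 8 h in wild type cells, and 47 at 4 h and 132 against 283 at 8 h between genotypes. Array weights gave 218 at 4 h and 1737 at 8 h in wild type cells and 100 untreated and 654 at 8 h between genotypes. At 4 h in CHOP-/- cells there were 52 under median centring, 65 without the filter or with signals as deposited, and 160 with the replicate block within genotype. The replicate block gave 232 at 4 h between genotypes, and a filter at the 60th percentile gave 41 untreated. The count of response differences at 8 h was 0 to 6 and at 4 h at most 1. Under median centring the share of higher calls was 65.8% against 52.7% at 8 h and 80.3% against 61.1% from 4 h to 8 h in CHOP-/- cells, and 68.8% against 58.4% and 69.3% against 52.4% in wild type cells.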
